A study of Mus musculus with 88 samples.

Results

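The genes described here are 8 scavenger receptors: Scarb1, Scarb2, Cd36, Msr1, Marco, Olr1, Stab1 and Cxcl16. A gene was included through each probe set that the platform annotation assigned to its symbol alone, which gave 9 probe sets for 7 of the 8 genes, out of 8251 genes with such a probe set on the array. Cxcl16 had none and has no value here. RNA came from the hearts of 88 mice, and each heart had an array of its own. The dKO mice were SR-BI-/- apoE-/- and the HET mice, the controls, were SR-BI+/- apoE-/-, so all 12 groups lacked apolipoprotein E and no group had a full complement of Scarb1. Mice were 21, 31 or 43 days old and ate chow, or were treated with probucol, an antioxidant that lowers plasma cholesterol. The chow groups of dKO mice numbered 10, 10 and 12 animals in order of age, and those of HET mice 9, 10 and 9. The probucol groups were smaller, with 6, 8 and 6 dKO animals and only 3, 3 and 2 HET animals. The design text states that coronary disease was not detectable in dKO mice at 21 days, that infarcts were small at 31 days and extensive at 43 days, and that HET mice on chow remained without detectable disease. The comparisons ask how the receptors differ between genotypes as disease develops, and with the drug.

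Scavenger receptors are cell-surface and lysosomal membrane proteins that bind modified lipoproteins, lipids and other polyanionic ligands. Scarb1 encodes SR-BI, which takes up cholesteryl ester from high-density lipoprotein (HDL). Its relatives are Scarb2, which encodes the lysosomal membrane protein LIMP-2, and Cd36, a fatty acid transporter of muscle and endothelium that macrophages also carry. Msr1 and Marco are class A receptors of macrophages, Olr1 encodes LOX-1, the receptor for oxidized low-density lipoprotein on endothelium, Stab1 encodes stabilin-1 of sinusoidal endothelium and tissue macrophages, and Cxcl16 encodes a membrane-bound chemokine that also binds oxidized lipoprotein.

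Promoter sequence from RefSeq (GRCm38.p6) was at hand for 5 of the 8 genes: Scarb2, Cd36, Marco, Olr1 and Stab1. The 250 bases before the transcript start are shown for Stab1 and Olr1, which were higher in dKO hearts at 43 days, and for Cd36, which was lower, to set genes of opposite direction side by side. All are on the minus strand and are written 5′ to 3′ along the gene, at chr14:31168642-31168891 for Stab1, chr6:129507166-129507415 for Olr1 and chr5:17835897-17836146 for Cd36. Capitals mark matches, on either strand, to GAGGAA (the core of a PU.1 box), CCAAT and GGGCGG (a GC box).
Stab1: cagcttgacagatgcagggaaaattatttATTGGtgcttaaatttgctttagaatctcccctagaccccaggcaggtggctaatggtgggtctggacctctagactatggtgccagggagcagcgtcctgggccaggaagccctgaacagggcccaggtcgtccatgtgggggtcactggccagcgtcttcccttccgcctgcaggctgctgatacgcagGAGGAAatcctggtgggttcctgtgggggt
Olr1: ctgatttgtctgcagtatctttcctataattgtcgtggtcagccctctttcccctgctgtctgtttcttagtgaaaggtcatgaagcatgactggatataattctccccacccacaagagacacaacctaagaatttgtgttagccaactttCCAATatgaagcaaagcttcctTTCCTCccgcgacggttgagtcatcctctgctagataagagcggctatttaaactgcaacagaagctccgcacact
Cd36: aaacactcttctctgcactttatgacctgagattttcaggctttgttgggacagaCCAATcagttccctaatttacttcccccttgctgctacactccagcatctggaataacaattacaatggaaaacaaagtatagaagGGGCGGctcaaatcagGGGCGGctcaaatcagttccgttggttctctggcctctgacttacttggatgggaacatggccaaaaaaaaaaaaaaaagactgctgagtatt
GAGGAA was in the Stab1, Olr1 and Marco windows and not in those of Cd36 and Scarb2, and 23.3% of all 32851 promoter windows of this length held it. GGGCGG occurred 2 times in the Cd36 window and 1 time in the Scarb2 window, against 32.7% of all windows with a match. CCAAT was in the Stab1, Olr1 and Cd36 windows and in 33.8% of all. The 5 windows held no CACGTG, the E-box that TFEB binds, which 6.02% of all windows held. These matches describe the letters and were not tested for binding.

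Values are deposited signal intensities on a log2 scale with a floor at 2.08, and a difference is a log2 difference ± SE with a p-value from limma, adjusted over 5672 genes tested. The 5 members bright enough to be tested were Scarb1, Scarb2, Cd36, Msr1 and Stab1. Arrays differed in brightness together with the groups, with medians from 27.8 to 75.4, and the median gene differed by -0.10, 0.18 and 0.26 between dKO and HET hearts on chow at 21, 31 and 43 days and by 0.05, -0.25 and -0.31 between probucol and chow in dKO hearts. Most differences of the members are therefore also given after centring every array on its median. Differences of single list and marker genes are given as deposited only. At 43 days on chow 2101 genes were higher and 658 lower as deposited, against 1090 and 1588 after centring. A score from the second component of the residuals after the group means, which held 6.62% of their variance, was cut at its largest gap. This gave sets of 68 and 20 arrays. Such a cut gives 2 sets with any data, and what these sets stand for was not tested. The smaller set took in 6 dKO and 2 HET hearts among those on chow at 21 days, then 0 and 6 at 31 days and 0 and 3 at 43 days. The 3′ to 5′ ratio of actin, a sign of RNA quality, had group means on the log2 scale from -0.17 to 0.39. The lowest was that of dKO chow hearts at 21 days and the highest that of dKO chow hearts at 31 days, groups that are compared below. Nothing in the labels places replicates of a group in separate litters or cages, so p-values measure the spread between these mice.

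Scarb1, the targeted gene, gave less signal in dKO hearts on chow at 21, 31 and 43 days alike, and no dKO heart was at the floor. In HET hearts its log2 signal had a lowest, median and highest value of 6.99, 7.63 and 8.01 at 21 days, 6.77, 7.39 and 8.20 at 31 days, and 7.35, 7.62 and 8.08 at 43 days. In dKO hearts these values were 4.96, 5.84 and 6.55 at 21 days, 5.96, 6.75 and 7.19 at 31 days, and 6.38, 6.83 and 7.76 at 43 days. The genotypes were apart at 21 days, as were 0.0705% of all genes in this direction, while 4 of 10 dKO hearts at 31 days and 2 of 12 at 43 days lay inside the HET range. After centring no dKO heart lay inside it at any age, and the share of all genes without overlap after centring was not counted. The deficit was 2.99-fold at 21 days, a difference of -1.58 ± 0.17 (adjusted p = 5.56e-11), and 1.68-fold and 1.62-fold at 31 and 43 days (limma adjusted p = 0.000385 and 0.00025). It was -1.36, -1.07 and -1.04 after centring (adjusted p = 9.69e-13, 7.69e-10 and 1.15e-10). Whether the probe set lies inside the deletion is not stated in the sources used here, so this is a limited check of the genotype labels.

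**Figure D1:**
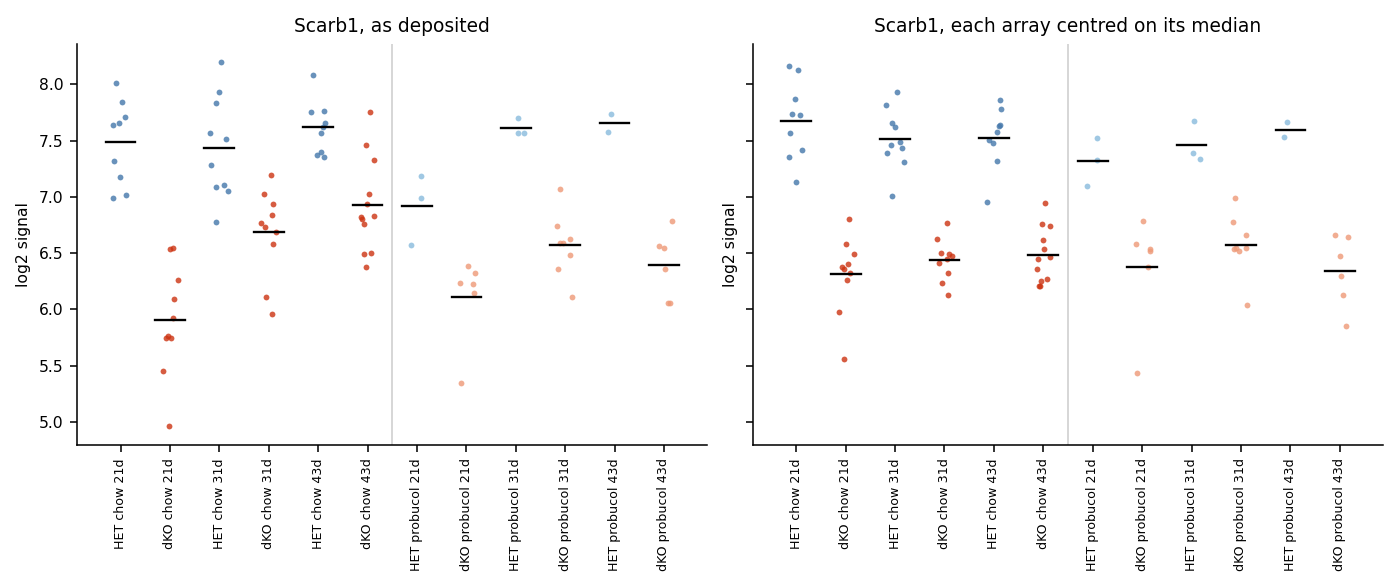
Log2 signal of Scarb1 in each heart (points) by group, with the mean of the group (bar), as deposited (left) and after centring each array on its median (right). After centring the dKO hearts lie below the HET hearts of the same age and diet in all 6 pairs of groups. How many other genes do so after centring was not counted.

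As deposited the Scarb1 deficit was smaller at the later ages, by 0.83 ± 0.24 at 31 days (limma adjusted p = 0.0116) and 0.89 ± 0.24 at 43 days (adjusted p = 0.00192), each relative to 21 days. The call was lost with centring, which gave 0.29 (adjusted p = 0.245) and 0.32 (adjusted p = 0.184). The median gene moved by 0.27 and 0.39 as deposited. The rise of Scarb1 in dKO hearts from 21 to 31 days behaved likewise, with 0.78 ± 0.17 (adjusted p = 7.29e-05) as deposited and 0.13 (adjusted p = 0.481) after centring. In HET hearts on chow its means of 7.48, 7.43 and 7.62 differed between ages by less than their SDs of 0.37, 0.45 and 0.24.

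With probucol the Scarb1 difference between genotypes had the same direction. The HET hearts had 6.58, 6.99 and 7.19 at 21 days, 7.56, 7.57 and 7.70 at 31 days, and 7.57 and 7.74 at 43 days. The dKO hearts ran from 5.35 to 6.39 at 21 days (n = 6), 6.11 to 7.07 at 31 days (n = 8) and 6.06 to 6.79 at 43 days (n = 6). The groups did not overlap at any of these 3 ages, as for 0.194%, 1.57% and 4.11% of all genes that were lower without overlap. The differences were -0.81 ± 0.26, -1.04 ± 0.25 and -1.26 ± 0.31 (limma adjusted p = 0.495, 0.49 and 0.117), and after centring -0.94, -0.89 and -1.25 (adjusted p = 0.0401, 0.162 and 0.00413). By limma 0 of the 5 members passed at any age, 1 at each age had an unadjusted p under 0.05, and 0%, 0% and 0.0176% of all genes passed, with 245, 231 and 244 genes at an unadjusted p under 0.05. In the order of the 12 group means of Scarb1, only the step from HET chow at 31 days (7.43) to dKO chow at 43 days (6.92), 0.51, exceeded the larger SD of its neighbours. The HET probucol group at 21 days (6.92) stood below that step as deposited, and after centring (7.32) above every dKO group.

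Stab1, stabilin-1, had the smallest adjusted p of the tested members in the genotype comparison at 43 days under both scalings, and at 31 days as deposited, where after centring Scarb1 had. In HET hearts on chow its log2 signal had a lowest, median and highest value of 6.62, 7.18 and 7.59 at 21 days, 7.17, 7.56 and 7.93 at 31 days, and 7.04, 7.39 and 7.90 at 43 days. In dKO hearts the values were 7.07, 7.54 and 7.91, then 8.28, 8.62 and 9.08, then 8.28, 9.00 and 9.57. The groups overlapped at 21 days and were wholly apart at 31 and 43 days. The differences were 1.11 ± 0.13 at 31 days, 2.16-fold (limma adjusted p = 1.75e-10), and 1.54 ± 0.13 at 43 days, 2.9-fold (adjusted p = 9.79e-18), and 0.79 and 1.19 after centring (adjusted p = 4.04e-06 and 1.36e-12). At 21 days the difference of 0.43 ± 0.14 missed the threshold as deposited (adjusted p = 0.0716) and passed after centring, at 0.65 (adjusted p = 0.00126).

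The genotype difference of Stab1 at 43 days exceeded that at 21 days by 1.10 ± 0.19 (limma adjusted p = 1.95e-06), and by 0.54 after centring (adjusted p = 0.0211). For 31 against 21 days the excess was 0.68 (adjusted p = 0.0102) and was no longer called after centring, at 0.14 (adjusted p = 0.607). Within dKO hearts Stab1 rose by 1.10 ± 0.13 from 21 to 31 days (adjusted p = 2.4e-10). The ages did not overlap as deposited, as for 5.48% of all genes that were higher without overlap, and after centring 4 of 10 hearts at 31 days lay inside the range at 21 days, with a difference of 0.44 (adjusted p = 0.00699). From 31 to 43 days the difference was 0.28 ± 0.13 (adjusted p = 0.109). In HET hearts it rose by 0.42 ± 0.14 from 21 to 31 days (adjusted p = 0.0251), a call lost after centring, at 0.30 (adjusted p = 0.157).

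Probucol in dKO hearts went with lower Stab1. The dKO probucol hearts had a lowest, median and highest value of 6.65, 6.90 and 7.41 at 21 days, 6.74, 7.35 and 7.91 at 31 days, and 7.15, 7.23 and 7.63 at 43 days. At 31 and 43 days no probucol heart reached the lowest dKO heart on chow (8.28 at both ages). The differences were -1.34 ± 0.14 (limma adjusted p = 1.4e-12) and -1.58 ± 0.15 (adjusted p = 1.49e-15), or 2.54-fold and 2.99-fold lower, and -1.10 and -1.19 after centring (adjusted p = 4.02e-09 and 1.65e-10). At 21 days it was -0.60 ± 0.15 (adjusted p = 0.0659), and after centring -0.75 (adjusted p = 0.00357). In HET hearts the probucol difference, averaged over the ages, was -0.08 ± 0.12 (adjusted p = 0.785), and the effect in dKO exceeded that in HET hearts by -1.45 ± 0.24 at 31 days and -1.39 ± 0.28 at 43 days (adjusted p = 1.03e-05 and 7.3e-05). After centring the excess was -0.975 at 31 days and -1.033 at 43 days (limma adjusted p = 0.00719 and 0.00412).

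**Figure D2:**
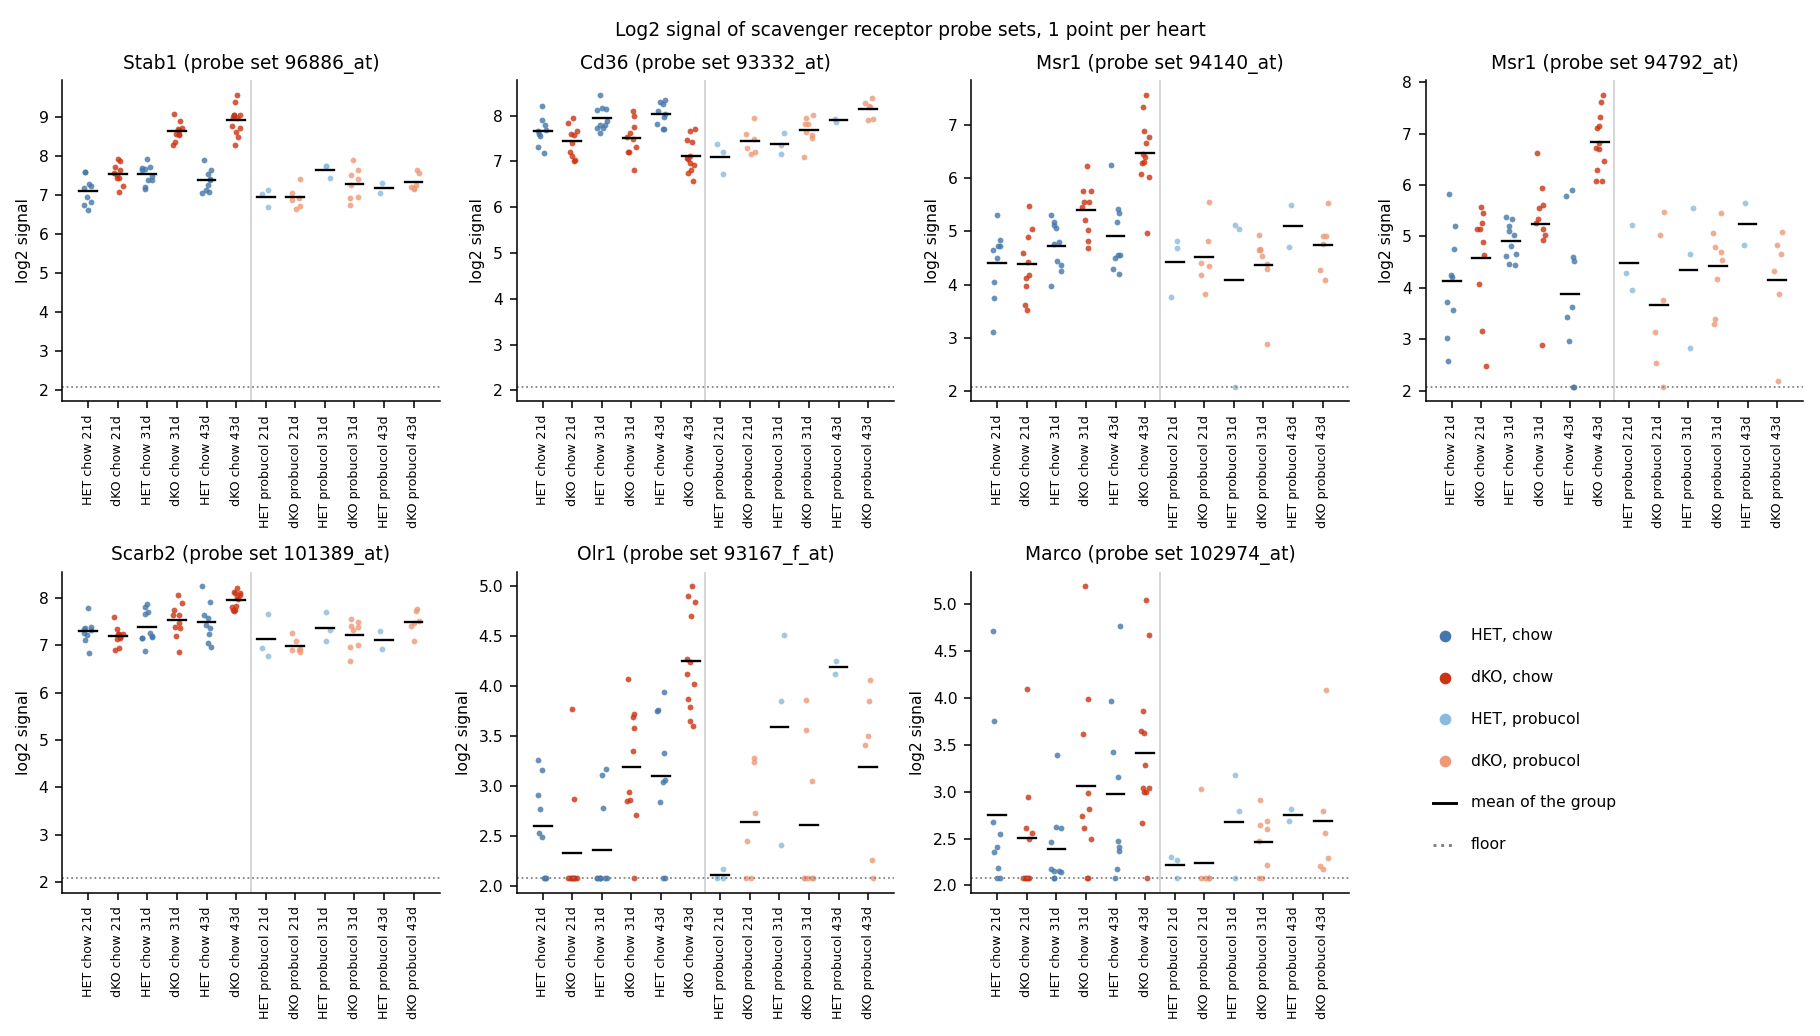
Log2 signal of 7 probe sets of the members in each heart (points) by group, with the mean of the group (bar) and the floor of 2.08 (dotted line). Stab1 and both Msr1 probe sets are highest in dKO chow hearts at 43 days, where Cd36 is low, and Olr1 and Marco lie near the floor in many hearts.

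Cd36, the fatty acid transporter, went the other way. In HET hearts on chow its log2 signal had a lowest, median and highest value of 7.18, 7.66 and 8.20 at 21 days, 7.61, 7.84 and 8.45 at 31 days, and 7.71, 8.04 and 8.35 at 43 days. In dKO hearts the values were 7.01, 7.49 and 7.96, then 6.82, 7.50 and 8.11, then 6.58, 7.06 and 7.70. The genotypes overlapped at 21 and 31 days and stood apart at 43 days, where after centring 2 of 12 dKO hearts lay inside the HET range. Cd36 was not called at 21 days, with -0.22 ± 0.14 (limma adjusted p = 0.465) and 0.001 after centring (adjusted p = 0.996). It was lower at 31 days, by a difference of -0.44 ± 0.14 (adjusted p = 0.0129), and at 43 days, by -0.90 ± 0.14, 1.87-fold (adjusted p = 3.1e-08). After centring the differences were -0.76 and -1.25 (adjusted p = 9.08e-05 and 4.21e-11). From 21 to 43 days the difference widened by -0.69 ± 0.20 (adjusted p = 0.00382), and by -1.25 after centring (adjusted p = 3.17e-06). Within dKO hearts the step from 21 to 31 days in Cd36 depended on the scaling, with 0.06 ± 0.14 as deposited (adjusted p = 0.698), but -0.59 after centring (adjusted p = 0.00184) and -0.41 after quantile normalization (adjusted p = 0.0183).

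With probucol at 43 days the dKO hearts ran from 7.91 to 8.38 for Cd36, with a median of 8.20, and all 6 lay above all 12 dKO hearts on chow. The difference was 1.02 ± 0.16, 2.03-fold (limma adjusted p = 3.64e-08), and 1.41 after centring (adjusted p = 7.97e-11). At 31 days it was 0.17 ± 0.15 (adjusted p = 0.4), with 0.42 after centring (adjusted p = 0.0574) and 0.49 after quantile normalization, where it was called (adjusted p = 0.00633). HET hearts on probucol had 6.72, 7.20 and 7.38 at 21 days, 7.16, 7.37 and 7.63 at 31 days, and 7.86 and 7.94 at 43 days. Their difference from chow, averaged over the ages, was -0.42 ± 0.13 (adjusted p = 0.0519). The probucol effect on Cd36 was greater in dKO than in HET hearts by 1.16 ± 0.29 at 43 days (adjusted p = 0.0018), and by 1.51 after centring (adjusted p = 0.000251). At 31 days it was greater by 0.73 ± 0.25 (adjusted p = 0.0496), and this call was lost without any 1 of the 3 HET probucol hearts of that age, at 0.62 (adjusted p = 0.155), 0.72 (0.123) and 0.86 (0.0593) without replicates 1, 2 and 3. The other Cd36 probe set was at the floor on 87 of 88 arrays and gave no level.

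Msr1, the class A receptor of macrophages, had 2 probe sets, and the brighter one stood for the gene. In HET hearts on chow its log2 signal had a lowest, median and highest value of 3.11, 4.65 and 5.31 at 21 days, 3.98, 4.78 and 5.32 at 31 days, and 4.19, 4.56 and 6.25 at 43 days. In dKO hearts the values were 3.52, 4.30 and 5.47, then 4.69, 5.50 and 6.23, then 4.96, 6.43 and 7.57. The genotypes overlapped at each age, and at 43 days 3 of 12 dKO hearts lay inside the HET range. The difference at 43 days was 1.56 ± 0.29, 2.94-fold (limma adjusted p = 4.09e-06), and 1.21 after centring (adjusted p = 0.000188). At 31 days it was 0.68 ± 0.29 (adjusted p = 0.0832), and 0.36 after centring (adjusted p = 0.357). The second probe set, tested in a fit of all 10833 probe sets with 1 symbol, gave 2.95 ± 0.42 at 43 days (adjusted p = 7.04e-09), with dKO hearts from 6.07 to 7.75 and HET hearts from the floor to 5.90. At 31 days it gave 0.33 ± 0.42 (adjusted p = 0.668). Over the 12 group means after centring the probe sets had a Pearson r of 0.77.

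Within dKO hearts on chow the brighter Msr1 probe set rose by 1.02 ± 0.29 from 21 to 31 days (limma adjusted p = 0.00239) and by 1.08 ± 0.28 from 31 to 43 days (adjusted p = 0.00246). After centring the first step was 0.37 and no longer called (adjusted p = 0.331), and the second was 0.88 (adjusted p = 0.0133). With probucol the dKO hearts had a lowest, median and highest value of 2.89, 4.59 and 4.93 at 31 days and 4.09, 4.84 and 5.53 at 43 days. The difference from chow at 43 days was -1.73 ± 0.33, 3.31-fold lower (adjusted p = 7.3e-06), and -1.34 after centring (adjusted p = 0.000336), and the second probe set gave -2.68 ± 0.47 (adjusted p = 2.63e-06). At 31 days it was -1.03 ± 0.31 (adjusted p = 0.00745), with -0.79 after centring (adjusted p = 0.0536), and -0.80 ± 0.45 on the second probe set (adjusted p = 0.245).

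The probucol effect on Msr1 at 43 days differed between genotypes by -1.91 ± 0.61 (limma adjusted p = 0.0186), a call lost after centring, at -1.55 (adjusted p = 0.0518), and by -4.03 ± 0.88 on the second probe set (adjusted p = 0.000492). That group holds 2 HET probucol hearts, at 4.70 and 5.50, and without replicate 2 the value was -1.51 (adjusted p = 0.226). In the HET probucol group at 31 days 1 heart was at the floor on the brighter probe set and the other 2 were at 5.04 and 5.12, while on the second probe set the 3 hearts had 2.83, 4.66 and 5.55.

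Scarb2, the lysosomal membrane protein, moved least among the 5 tested members in the genotype comparison at 43 days. In HET hearts on chow at 43 days its log2 signal had a lowest, median and highest value of 6.96, 7.43 and 8.25, and in dKO hearts 7.73, 8.00 and 8.22. All 12 dKO hearts lay inside the HET range, in its upper part. The difference was 0.46 ± 0.13 (limma adjusted p = 0.00209), but 0.11 after centring (adjusted p = 0.437) and 0.17 after quantile normalization (adjusted p = 0.186). The same held for probucol against chow in dKO hearts at 43 days, with -0.45 ± 0.15 (adjusted p = 0.00845) and -0.07 after centring (adjusted p = 0.732). From 21 to 31 days in dKO hearts the sign itself depended on the scaling, with 0.33 ± 0.13 as deposited (adjusted p = 0.0255) and -0.32 after centring (adjusted p = 0.0264). From 31 to 43 days it was 0.43 ± 0.13 (adjusted p = 0.00797) and 0.23 after centring (adjusted p = 0.149).

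Olr1 and Marco were too dim for the test over 5672 genes. Their single probe sets were at the floor on 31 and 21 of 88 arrays, and their mean signals were at percentiles 14.9 and 10.8 of all probe sets. For Olr1, the LOX-1 gene, 8 of 10 dKO hearts on chow were at the floor at 21 days, 1 of 10 at 31 days and 0 of 12 at 43 days, where the values ran from 3.60 to 5.001 with a median of 4.18. In HET hearts on chow 3 of 9, 7 of 10 and 2 of 9 were at the floor, and the values at 43 days ran from 2.08 to 3.94 with a median of 3.06. In the fit of all 10833 probe sets the genotype difference of Olr1 was 0.83 ± 0.27 at 31 days (limma adjusted p = 0.0252) and 1.15 ± 0.27 at 43 days (adjusted p = 0.000283), where 16.4% and 33.2% of probe sets were called. After centring it was 0.50 (adjusted p = 0.155) and 0.81 (adjusted p = 0.00682).

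With probucol at 43 days Olr1 in dKO hearts ran from 2.08 to 4.07 with a median of 3.46, a difference from chow of -1.06 ± 0.30 (limma adjusted p = 0.0042) that was not called after centring, at -0.67 (adjusted p = 0.0691). Both HET probucol hearts of that age, at 4.12 and 4.25, lay above all HET chow hearts, and the share of all genes that did so was not counted. Averaged over the ages the probucol difference of Olr1 in HET hearts was not called, at 0.61 ± 0.25 (limma adjusted p = 0.278). After centring it was 0.61 (adjusted p = 0.19). Such differences understate the change where hearts are at the floor, and the probe set carries the suffix that the maker gives to sets shared by a gene family. For Marco, the other class A receptor of macrophages, group means lay between 2.22 and 3.41 and the highest value in any heart was 5.19. The genotype difference at 43 days was 0.43 ± 0.31 (adjusted p = 0.305). Marco was not called in any of the 19 comparisons of that fit.

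Among the 5 tested members 1 passed the threshold in the genotype comparison on chow at 21 days (2.08% of all genes did, 0.67% higher and 1.41% lower), 3 at 31 days (23.9%, 20% higher and 3.88% lower) and 5 at 43 days (48.6%). Scarb1, the gene that defines the genotypes, was the 1 member at 21 days. It is counted at all 3 ages, so these counts are not independent of the genotype labels. At 43 days Scarb1 and Cd36 were lower, as were 11.6% of genes, and Scarb2, Msr1 and Stab1 higher, as were 37%. The median over the 5 members was 0.46, the value of Scarb2, beside 0.26 over all genes. Scarb2 was not called after centring, at 0.11 (limma adjusted p = 0.437). At 31 days Stab1 was without overlap, as were 2.03% of genes that were higher, and at 43 days Cd36 and Stab1 were, as were 2.49% of genes that were lower and 6.98% that were higher. The genotype difference changed between 21 and 31 days for 2 members, Scarb1 and Stab1, both upward (14.5% of genes, 14% upward). After centring neither was called and Cd36 was, downward, at -0.76 (adjusted p = 0.00873), and the calls over all genes turned from 795 upward and 26 downward to 242 and 1183. The genotype difference changed between 21 and 43 days for all 5, 4 upward and 1 downward (39%, 32.9% upward and 6.06% downward), but after centring this held for Cd36, Msr1 and Stab1 only. The difference of Scarb2 changed by 0.56 ± 0.19 as deposited (limma adjusted p = 0.0138), against -0.005 after centring (adjusted p = 0.984). The Msr1 difference changed by 1.58 ± 0.42 (adjusted p = 0.00173), and by 0.90 after quantile normalization (adjusted p = 0.104).

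With age in HET hearts 1 member was called from 21 to 31 days (16.7% of genes, 15.8% higher) and 0 from 31 to 43 days (0.282%), where limma gave 0 members an unadjusted p under 0.05. In dKO hearts 4 were called from 21 to 31 days, all higher (63.5%, 62.5% higher). After centring 3 were called, Stab1 higher and Scarb2 and Cd36 lower, and the calls over all genes turned from 3545 higher and 59 lower to 382 and 1430. From 31 to 43 days 3 were called (23.4%, 17.9% higher and 5.45% lower). No member was without overlap between 31 and 43 days, where 0.934% of genes were higher without overlap. In the latter step Cd36 fell, with -0.38 ± 0.13 (limma adjusted p = 0.0293) and -0.57 after centring (adjusted p = 0.00229). For probucol against chow in dKO hearts limma called 0 members at 21 days (0.176% of genes, and 0.0353% higher without overlap, with 1 member at an unadjusted p under 0.05), 2 at 31 days, both lower (28.9%, 26.8% lower), and 5 at 43 days, 1 higher and 4 lower (45.6%, 8.22% higher and 37.4% lower). Without overlap were Stab1 at 31 days, as were 4.09% of genes that were lower, and Stab1 and Cd36 at 43 days, as were 12.5% that were lower and 2.73% that were higher. Scarb1 was among the 5, with -0.53 ± 0.19 (adjusted p = 0.0151), against -0.14 after centring (adjusted p = 0.477) and -0.37 with the replicate number as a block (adjusted p = 0.116). In HET hearts limma called 0 members for probucol (2.7% of genes, with 1 member at an unadjusted p under 0.05). The probucol effect differed between genotypes for 0, 2 and 3 members by limma at 21, 31 and 43 days (0.106%, 9.29% and 18.3% of genes, with 2 members at an unadjusted p under 0.05 at 21 days). These comparisons share groups of hearts with each other.

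**Figure D3:**
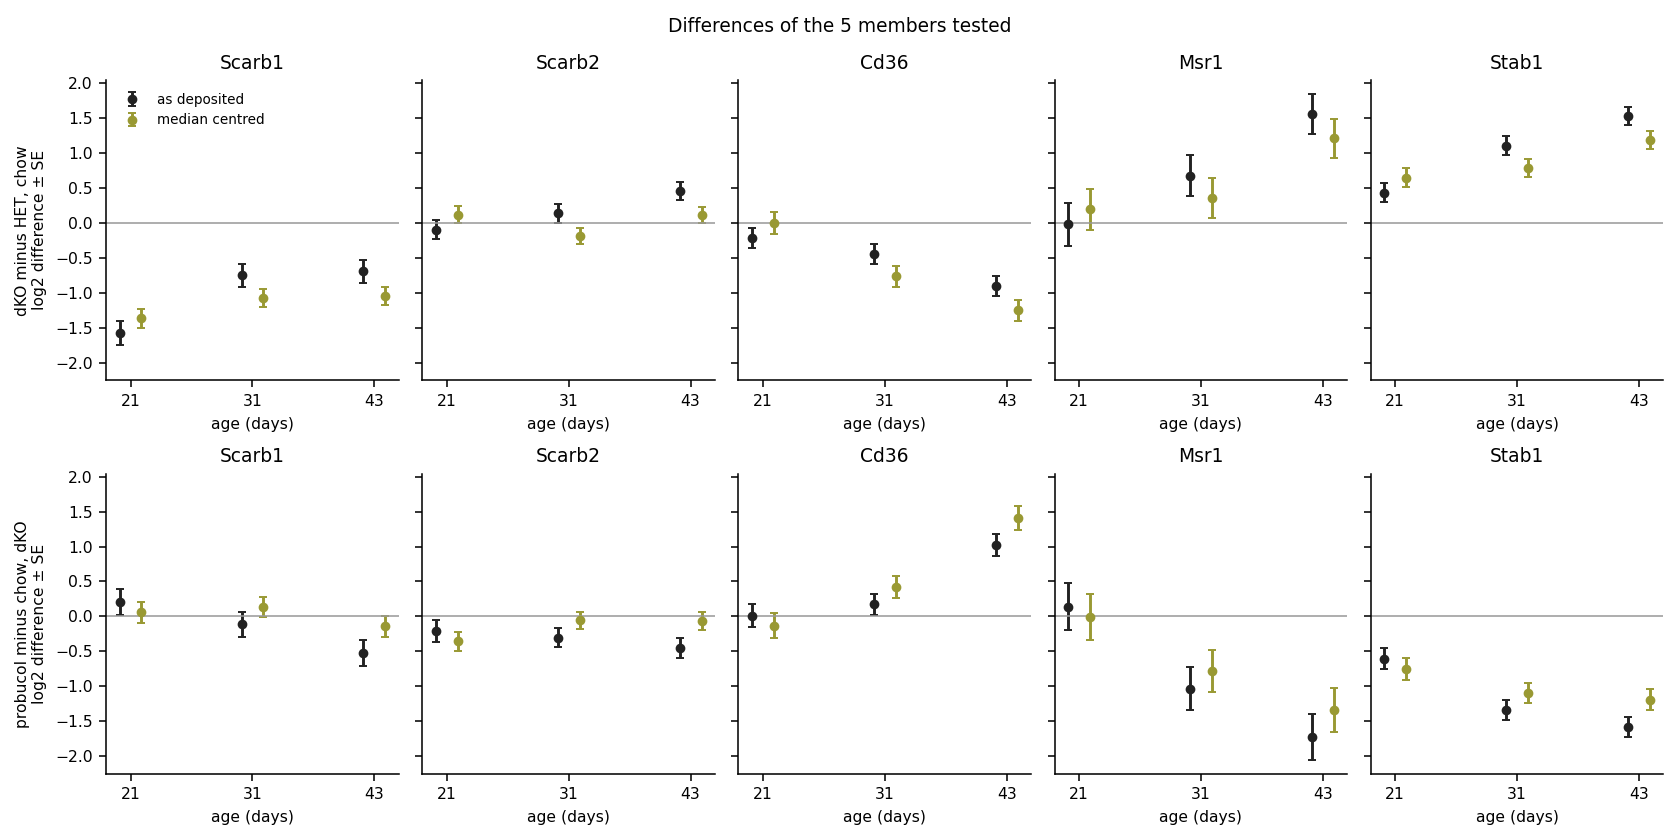
Log2 differences ± SE of the 5 tested members at 21, 31 and 43 days, for dKO minus HET hearts on chow (top) and probucol minus chow in dKO hearts (bottom), as deposited (black) and after centring (olive). At 43 days the signs for Cd36, Msr1 and Stab1 in the bottom row are opposite to those in the top row under both scalings, while Scarb2 is near 0 after centring.

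Other genes of the same pathways were counted in lists. Of 24 other scavenger receptors 9 were tested, and 1, 5 and 7 were higher in dKO hearts on chow at 21, 31 and 43 days, where 0.67%, 20% and 37% of all genes were. After centring 3, 4 and 7 were higher and 0, 1 and 2 lower. Of all 5672 genes 231, 469 and 1090 were then higher and 52, 1305 and 1588 lower. Cd68, the macrosialin of macrophage lysosomes, was higher by 1.12 ± 0.16, 2.13 ± 0.16 and 2.62 ± 0.16 (limma adjusted p = 6.35e-07, 4.58e-20 and 1.9e-26). At 43 days Lrp1, a large endocytic receptor, was higher by 1.25 ± 0.12, Mrc1, the mannose receptor, by 1.58 ± 0.16, and Icam1, an adhesion molecule counted in 2 lists, by 2.90 ± 0.28 (adjusted p = 8.69e-16, 7.59e-14 and 1.58e-15). The 1 receptor of the list that was lower at 43 days as deposited, named after its value was seen, was Vldlr, the receptor for very-low-density lipoprotein, with -1.18 ± 0.18 (adjusted p = 4.03e-08). The median of the list at 43 days was 1.33, beside 0.26 over all genes.

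In the list for HDL and sterol transport, the pathway that SR-BI serves, 2, 7 and 8 of 10 tested genes were higher in dKO hearts and 0 lower at the successive ages (0.67%, 20% and 37% of all genes were higher), with a median of 1.48 at 43 days. After centring 5, 6 and 7 were higher and 0, 1 and 1 lower. Of all 5672 genes 231, 469 and 1090 were higher after centring and 52, 1305 and 1588 lower. Apod, a lipid-binding apolipoprotein, had the smallest p of the list at 43 days and was higher by 6.81 ± 0.36 (limma adjusted p = 7.59e-30). Abca1, which loads cholesterol onto HDL particles, was higher by 1.46 ± 0.17, 1.89 ± 0.16 and 2.63 ± 0.16 at the successive ages (limma adjusted p = 4.02e-10, 1.09e-16 and 1.01e-25). Pltp, the phospholipid transfer protein, was higher by 2.04 ± 0.13 and Npc2, a lysosomal sterol carrier, by 1.80 ± 0.12 at 43 days (adjusted p = 6.4e-25 and 2.18e-24). Of 16 tested lysosomal genes 2, 13 and 15 were higher, against the same shares of all genes, with a median of 1.497 at 43 days. After centring 6, 10 and 13 were higher, beside 231, 469 and 1090 of all 5672 genes. Ctss, a lysosomal protease of antigen-presenting cells, was higher by 4.40 ± 0.19 at 43 days (adjusted p = 1.54e-35). Ctsb, a lysosomal protease, was higher by 1.85 ± 0.08 and Lamp1, a lysosomal membrane protein like LIMP-2, by 1.34 ± 0.09 (adjusted p = 7.48e-34 and 1.93e-23).

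Fatty acid uptake, the pathway of Cd36, was mixed, with 4 of 13 tested genes higher and 5 lower in dKO hearts at 43 days. Of all genes 37% were higher and 11.6% lower there. After centring 2 of the list were higher and 7 lower, beside 1090 and 1588 of all 5672 genes. Fabp3, the fatty acid binding protein of heart muscle, was lower by 0.76 at 43 days, a difference of -0.76 ± 0.11, and Cpt2 of the carnitine shuttle differed by -0.88 ± 0.10 (limma adjusted p = 2.16e-09 and 2.62e-13). Plin2, a lipid droplet coat protein, was higher by 1.18 ± 0.11, and Fabp5, another fatty acid binding protein, by 1.28 ± 0.16 (adjusted p = 2.69e-15 and 7.66e-11). In the list of signalling downstream of LOX-1 and class A receptors 6 of 7 tested genes were higher at 43 days, where 37% of all genes were. After centring 4 of the list were higher, beside 1090 of all 5672 genes. Ccl2, a monocyte chemokine, was higher by 5.10 ± 0.38, Vcam1, an endothelial adhesion molecule, by 0.73 ± 0.16, and Rela, a subunit of NF-kappa-B, by 0.59 ± 0.14 (adjusted p = 8.79e-21, 7.73e-05 and 0.000235). These values are as deposited, and which genes of the list lost their call after centring is not given here. Of the list around Cxcl16, Adam10, the protease that sheds it, was the 1 gene tested, and it was higher by 1.04 ± 0.15 at 43 days (adjusted p = 1.01e-08).

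Cell type markers moved with these groups. Their summed signals are as deposited and were not centred. At 43 days the median of the array medians was 42.8 in HET and 57.6 in dKO hearts on chow, and 45.1 in dKO hearts on probucol. The part of array brightness in the sums was not tested. The summed linear signal of 24 macrophage markers ran from 2873 to 6385 in HET and from 14140 to 29590 in dKO hearts on chow at 43 days, and from 3667 to 4618 in dKO hearts on probucol. At 31 days it ran from 3311 to 5762 in HET and from 8148 to 16170 in dKO hearts. Of 20 tested macrophage markers 5, 17 and 19 were higher in dKO hearts on chow at 21, 31 and 43 days and 0 lower, where 0.67%, 20% and 37% of all genes were higher. After centring 10, 15 and 19 were higher, beside 231, 469 and 1090 of all 5672 genes. The 1 not called at 43 days, named after its value was seen, was Cx3cr1, at 0.28 ± 0.24 (limma adjusted p = 0.353). Mpeg1 was higher by 3.85 ± 0.17 and Lyz2 by 3.01 ± 0.15 (adjusted p = 1.64e-34 and 3.15e-31). Cd68, Cd14, Mrc1 and Cd163 are in both this list and that of other scavenger receptors, and Ctss is in the macrophage and lysosome lists. Npc1 and Npc2 are in both the lists for HDL and sterol transport and for the lysosome. Nos3 is in the endothelial and LOX-1 lists, and Fabp4 in those for fatty acid uptake and adipocytes. Counts of lists that share genes are not independent.

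The summed signal of 13 endothelial markers ran from 2971 to 4213 in HET and from 4233 to 7306 in dKO hearts on chow at 43 days. Of the 13, 8 were higher there, where 37% of all genes were. After centring 5 were, beside 1090 of all 5672 genes. Vwf was higher by 0.94 ± 0.11 (limma adjusted p = 1.22e-11). The sum of 11 heart muscle markers ran from 56360 to 63940 in HET and from 43250 to 52320 in dKO hearts. With probucol in dKO hearts this sum ran from 62350 to 69160. On chow 9 of the 11 were lower in dKO hearts, as were 11.6% of all genes, with -1.71 ± 0.10 for Ckm (limma adjusted p = 4.03e-26). The sums of 10 fibroblast and 3 erythroid markers were also without overlap and higher in dKO hearts on chow at 43 days, as were 6.98% of single genes. The fibroblast sum ran from 16430 to 25090 in dKO against 7031 to 10020 in HET hearts, and the erythroid sum from 11180 to 17800 against 3653 to 4677. The sum of 6 adipocyte markers overlapped, from 341.2 to 832 in dKO and 315.6 to 908.3 in HET hearts. No macrophage, endothelial, heart muscle, fibroblast or erythroid marker had a group mean at the floor. In whole hearts a change in the number of cells of a type and a change in RNA per cell cannot be told apart, and the part of these marker shifts in the member differences was not tested.

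**Figure D4:**
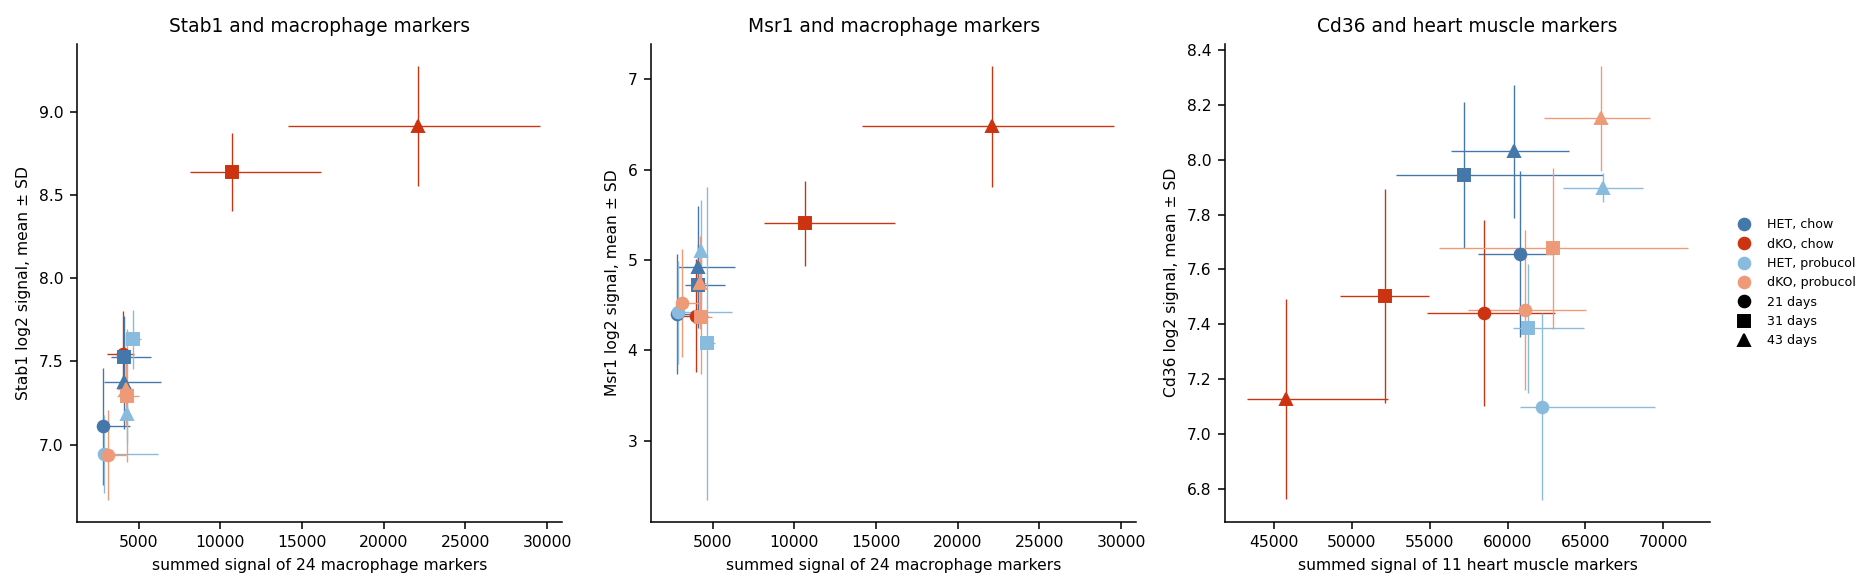
Mean log2 signal ± SD of Stab1 and Msr1 against the summed linear signal of 24 macrophage markers, and of Cd36 against that of 11 heart muscle markers, for the 12 groups (horizontal bars run from the lowest to the highest heart around the median). The dKO chow groups at 31 and 43 days stand apart on the macrophage axis, and the dKO chow group at 43 days has the lowest heart muscle sum.

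The genes whose 12 group means after centring were most like those of a member are given with Pearson's r, as a description of groups that share arrays. Stab1 was most like Emp1 (r = 0.972), Tagln2 (0.969) and Hmox1 (0.959), and Msr1 most like Asah1 (0.956), Clu (0.922) and Pold4 (0.909). Cd36 was most like Ephx2 (0.958), Gpam (0.954) and Mmut (0.95). The lists for Scarb1, with Twist2 (0.885), Ezr (0.852) and Gh (0.847), and for Scarb2, with Ywhag (0.907), Dhx30 (0.892) and Nmt1 (0.877), had lower correlations. As deposited 0 of the 3 genes nearest to Scarb1 were among its nearest 3, against 3 of 3 for Scarb2 and 2 of 3 for Cd36, Msr1 and Stab1. Among the members, Cd36 and Stab1 had an r of -0.69 over the 12 groups, and Msr1 and Stab1 one of 0.62.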

How the data were processed

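Whole-heart RNA of 88 mice was biotin-labelled and hybridised to 1 Affymetrix array per mouse, per the labels' protocols. The deposited values are linear signal intensities of 12488 probe sets, made by the authors with MAS5, per the submitters' processing notes; the scaling step and detection calls are not given in the sources used here. Groups follow the titles; 1 dKO chow array at 21 days, replicate 2, is given another age in its description, and alternatives leave it out.

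Values under 4.22, the 10th percentile over the whole matrix, were set to 4.22 before taking log2, which understates differences of dim genes. Of the probe sets 10833 had 1 gene symbol, 396 several and 1193 none, and 10817 were found by Entrez identifier in the RefSeq gene table. Those ranking in the top 60% of mean log2 signal stayed, with the brightest taken per gene, leaving 5672 genes. With R 4.3.3 and data.table version 1.17.8, limma 3.58.1 fitted 12 group means to all arrays, with an intensity trend and Benjamini-Hochberg adjustment within each of 19 contrasts at 0.05. Fits were tested on simulated data. Genes named with values were the members, the 3 nearest genes of each tested member, and some of the 4 (pathway) or 3 (marker) list genes with the smallest p at 43 days on chow. Members and lists were chosen with earlier results of these data known. The number of arrays limits the precision.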

Additional observations from a re-analysis of the deposited data

Results flagged for a closer look

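Of 40 pairs of a member and a group of 4 to 10 hearts, 2 held a heart far from the others, and chance gives about 1 in 20. Scarb1 was 5.35 in dKO probucol replicate 3 at 21 days, with the next heart at 6.14. Msr1 was 2.89 in dKO probucol replicate 1 at 31 days, with the next at 4.28.

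A test of the difference between effects passed for 12 results. The dKO minus HET difference on chow changed from 21 to 31 days for Scarb1 (0.83) and Stab1 (0.68), and from 21 to 43 days for Scarb1 (0.89), Scarb2 (0.56), Stab1 (1.10), Msr1 (1.58) and Cd36 (-0.69). The probucol effect in dKO minus that in HET hearts differed from 0 at 31 days for Cd36 (0.73) and Stab1 (-1.45), and at 43 days for Cd36 (1.16), Msr1 (-1.91) and Stab1 (-1.39). After median centring the values for Scarb1 at both ages, Scarb2, Stab1 from 21 to 31 days and Msr1 with probucol were no longer called.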

How the results depend on the processing

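Scaling made most of the changes. The differences of Scarb1, Cd36 and Stab1 at 31 days and of Scarb1, Cd36, Msr1 and Stab1 at 43 days between genotypes on chow were called under every alternative that could be run, and so were those of Stab1 at 31 and 43 days and of Cd36 and Msr1 at 43 days for probucol in dKO hearts. Msr1 does not pass the filter at the upper 40% and has no value there. Among the 45 differences followed here, signs reversed for Cd36 at 21 days on chow (0.001 with median centring, 0.37 with centring in the smaller array set, an alternative chosen after seeing the data), for Scarb2 in the change of the genotype difference to 43 days (-0.005 with centring), for Scarb2 from 21 to 31 days in dKO hearts (-0.15 with quantile normalization, -0.32 with centring, -0.31 with centring blocked on array set, -0.10 with centring in the larger set) and for Scarb1 in that step (-0.11 with centring in the larger set). Differences that were not called as deposited could also change sign, as for Cd36 from 21 to 31 days in dKO hearts, which was called lower after centring (-0.59) and quantile normalization (-0.41). The cause was not tested.

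The changes of the number of members called by over 1.5 times were as follows, with the smaller changes under quantile normalization and plain centring after them. With quantile normalization, median centring, array weights, and centring blocked on the array set it was 2 and not 1 for the genotype difference at 21 days on chow. For the change of that difference to 31 days it was 0 with quantile normalization, blocked on array set and in the larger set, and 1 with centring alone, and for the change to 43 days it was 2 with quantile normalization and 3 with the 3 centred fits. From 21 to 31 days in HET hearts it was 0 under every scaling alternative and with only the groups compared (Stab1, adjusted p = 0.056), and in dKO hearts 2 with quantile normalization and blocked on array set and 1 in the larger set. For probucol in dKO hearts it was 1 at 21 days with quantile normalization, centring, centring blocked on array set, array weights and the Gapdh ratio, 1 at 31 days with centring, in the larger set and with the upper 40% of probe sets, and 3 at 43 days with quantile normalization and the 3 centred fits. For probucol in HET hearts it was 1 with the upper 40%, with only the groups compared, with array weights and with the Gapdh ratio. Between genotypes on probucol it was 1 at 21 days with centring and blocked on array set, 1 at 31 days with array weights, and 1 at 43 days with each scaling alternative and array weights. For the probucol effect between genotypes at 31 days it was 1 with only the groups compared, with the replicate block, without the intensity trend and with the actin ratio. Smaller changes were from 5 to 4 for the genotype difference at 43 days on chow and from 3 to 2 for 31 to 43 days in dKO hearts, each under quantile normalization and centring with Scarb2 lost. With centring the count went from 4 to 3 for 21 to 31 days in dKO hearts and from 3 to 2 for the probucol effect between genotypes at 43 days (Msr1 lost), and with quantile normalization from 2 to 3 for probucol in dKO hearts at 31 days (Cd36 gained). The 1 member called with centring for the change of the genotype difference to 31 days was Cd36, downward, which is none of the 2 called as deposited.

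Leaving out 1 array moved the count to between 1 and 2 for the probucol effect between genotypes at 31 days, and to between 0 and 1 for probucol in HET hearts, where it was 1 without the HET probucol heart of replicate 1 at 21 days. The first of these is Cd36, whose adjusted p ran up to 0.155, and it was also lost without dKO chow replicate 2 at 21 days or either HET probucol heart at 43 days. Replicate numbers did not pair the mice, since residuals of arrays with the same number had a mean correlation of 0.00766 and 7 of 88 arrays were closest to their own number. With the replicate number as a block the calls of Scarb1 for probucol in dKO hearts at 43 days (-0.37, adjusted p = 0.116) and of Cd36 for the probucol effect at 31 days (0.65) were lost, and no other member call followed here changed. Dim signal limits Marco and Olr1, and groups of 2 or 3 HET probucol hearts limit every comparison that uses them.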
